A study of Mus musculus with 16 samples.

Results

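Microglia sorted from the mouse retina at 24 months of age were set against those sorted at 18 months, the last interval of an ageing series of 16 arrays. The comparison used 8 of the 16 arrays, 4 titled as microglia at 24 months and 4 at 18 months. Animals of both groups were wild-type C57BL/6 mice, an inbred laboratory strain, and no treatment or transgene is named for either. Per the labels, cells were taken from dissociated retinas by flow cytometry on CD11b, an integrin that microglia share with monocytes, macrophages, neutrophils and natural killer cells, so the sort alone does not tell these cells apart. Expression was read on Affymetrix Mouse Exon 1.0 ST arrays from less than 5 ng of amplified total RNA per sample. The 4 arrays of each age are called biological replicates without a count of the animals behind each. A p-value here reflects the spread of samples within the 4 ages, pooled over all 16 arrays and not over the 8 compared arrays alone. That spread may in part be technical. Levels are log2 values for 16755 features, and a log2 difference of 1 is a doubling of signal.

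Microglia are the resident immune cells of the retina. They survey the synaptic layers with fine processes, take up debris through phagocytic receptors, and respond to neighbouring cells through fractalkine, colony-stimulating factor and purinergic receptors. With age they are known to be primed, which means that genes of interferon signalling, antigen presentation, complement and chemokine production are readily induced, and monocytes can enter the ageing retina alongside them.

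No feature differed between 24 and 18 months in limma at an adjusted p of 0.05 (0 of 16755, or 0%), and the smallest adjusted p was 0.979. At an unadjusted p under 0.05, 181 features (1.08%) were higher and 251 (1.5%) lower at 24 months. The arrays of the ages did not overlap for 115 features (0.686%) that were higher and 138 (0.824%) that were lower, and 88 of these 253 were among the 33.3% dimmest features. Of all features, 9853 (58.8%) were higher and 6902 lower at 24 months. The median feature was 0.036 higher at 24 months, and the median size of a difference, 0.126, was smaller than the median standard error of 0.185. Differences ran from −1.87 to 2.44, with 45 features higher and 75 lower by more than 1. The genes and groups below are therefore described by their values on each array, and none of them passed the test.

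The spread among arrays of 1 age was as wide as the distance between the ages. Spearman correlations over the features lay between 0.889 and 0.966 within 24 months, between 0.912 and 0.990 within 18 months, and between 0.888 and 0.973 across the ages. Replicate 1 of 24 months stood with replicates 1 and 2 of 18 months, which correlated with each other at 0.990. On the first principal component of all 16 arrays, which held 42.8% of the variance, replicate 1 of 24 months lay at 64.4 and replicates 1 and 2 of 18 months at 70.5 and 66.5, against −14.3 to 8.2 for the other 5 arrays. These 3 arrays were also the lowest in microglia genes, so the medians of gene lists are given with and without them. Without them the median difference over all features was −0.028.

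The identity genes of microglia showed this division most plainly. Cx3cr1, the fractalkine receptor gene, stood at 9.91, 12.65, 12.76 and 12.57 in 24-month replicates 1 to 4 and at 10.35, 11.04, 12.77 and 12.41 in 18-month replicates 1 to 4. P2ry12, the purinergic receptor that guides microglial processes, stood at 8.69, 11.78, 11.97 and 11.71 at 24 months and at 9.93, 10.22, 12.05 and 11.74 at 18 months. In both genes the 3 low arrays were the same and the other 5 lay close together whichever age they came from. Itgam, which encodes CD11b itself, had 7.19, 10.03, 10.12 and 10.27 at 24 months and 7.68, 8.00, 10.31 and 9.73 at 18 months, so the gene of the sorted protein followed the same division. Tmem119, a membrane protein of microglia, had 7.20, 10.14, 9.88 and 10.41 at 24 months and 7.55, 7.54, 10.13 and 10.15 at 18 months. Csf1r, the receptor for colony-stimulating factor 1, differed by 0.42 (SE 0.618), Aif1, which encodes Iba1, by 0.41 (SE 0.497) and Ptprc, which encodes CD45, by 0.50 (SE 0.629). The 95% interval of the Cx3cr1 difference ran from −0.97 to 1.63 and that of P2ry12 from −1.35 to 1.47, and intervals this wide leave sizeable differences in either direction unmeasured.

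Of 24 measured homeostatic microglia genes (26 listed), 23 were higher and 1 lower at 24 months, with a median difference of 0.33 against 0.036 over all features, and 0 had an unadjusted p under 0.05. A list score averages the members on an array once each gene has been centred across the 16 arrays. The homeostatic score was −1.93, 0.41, 0.53 and 0.34 at 24 months and −1.52, −1.18, 0.56 and 0.30 at 18 months, with 1 low array at the older age and 2 at the younger. Without these 3 arrays the median was −0.00 and 12 of the 24 genes were higher. When each array was left out in turn the median lay between −0.05, without 18-month replicate 1, and 0.93, without 24-month replicate 1.

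Genes of rods, cones, bipolar cells and Müller glia ran the other way on the same arrays. The score of rod genes was 1.14, 0.19, 0.07 and 0.40 at 24 months and 1.03, 1.27, −0.15 and 0.64 at 18 months. Müller glia and astrocyte genes scored 0.85, 0.42, −0.16 and −0.07 at 24 months and 1.13, 1.02, −0.11 and 0.47 at 18 months. In both lists the 3 arrays that were lowest in microglia genes were the 3 highest. Rod genes were lower at 24 months in 14 of 14 measured (median −0.22), cone genes in 11 of 12 (median −0.33), bipolar cell genes in 7 of 9 (median −0.62) and Müller glia genes in 14 of 16 (median −0.33). Without the 3 arrays these medians were −0.05, 0.00, −0.12 and −0.06. Other retinal lists were not lower to that extent. Their medians on all arrays were 0.04 for amacrine cell, −0.03 for ganglion cell, 0.05 for horizontal cell, 0.10 for endothelial and 0.01 for pericyte genes. By score, though, the same 3 arrays were also the highest in amacrine, ganglion, endothelial and pericyte genes, but not in horizontal cell genes. Endothelial scores were 0.83 in 24-month replicate 1, 0.73 and 0.36 in 18-month replicates 1 and 2, and at most 0.10 elsewhere. Amacrine scores were 0.30, 0.27 and 0.16 there and at most 0.02 elsewhere. Gnat1, the rod transducin gene, was bright on every array, with 13.53, 13.20, 12.83 and 13.17 at 24 months and 13.65, 13.67, 12.69 and 13.29 at 18 months. Glul, the glutamine synthetase gene of Müller glia, stood between 13.15 and 13.28 at 24 months and between 13.03 and 13.38 at 18 months. Prkca, a kinase gene of rod bipolar cells, had 10.60, 9.34, 9.58 and 9.51 at 24 months and 11.06, 11.02, 9.76 and 9.95 at 18 months. In bulk RNA, fewer cells of a type and less RNA per cell cannot be told apart.

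The labels give each array a running number without saying what it stands for. All 4 arrays of 18 months carry numbers from 9 to 16, whereas 2 of the 24-month arrays carry 7 and 8. With the number groups 1 to 8 and 9 to 16 as a block, the median was −1.05 for rod genes, −1.09 for cone genes, −0.90 for Müller glia genes and 0.76 for homeostatic microglia genes. Within numbers 9 to 16, which leaves 24-month replicates 3 and 4 against all of the 18-month arrays, these medians were −0.39, −0.74, −0.74 and 0.91. Both low microglia arrays of 18 months are in that set and the low one of 24 months is not.

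Replicate 1 of 24 months also stood apart from the other arrays in genes of the pigment epithelium. Its score for genes of the retinal pigment epithelium, the pigmented layer behind the photoreceptors, was 1.66, against −0.38, −0.21 and −0.16 in the other 24-month arrays and −0.04 to 0.19 at 18 months. Ttr, the transthyretin gene and the brightest on this list, had 12.56, 7.95, 9.60 and 8.53 at 24 months and 10.60, 10.15, 10.60 and 10.17 at 18 months. The pigment epithelium list as a whole had a median difference of 0.15, with 8 of 9 genes higher at 24 months, and −0.08 with 2 of 9 higher once the 3 arrays were left out. The part of pigment epithelium RNA in the differences between the ages was not tested. Prox1, a transcription factor gene of horizontal cells, had 9.22, 8.49, 8.55 and 8.44 at 24 months and 10.64, 10.40, 8.70 and 8.64 at 18 months, again with replicate 1 of 24 months apart from its group. Its difference of −0.92 was the lowest of 6 horizontal cell genes, of which 4 were higher and 2 lower (median 0.05). The score of that list on replicate 1 of 24 months was −0.10, within the −0.16 to −0.08 of its age.

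**Figure D1:**
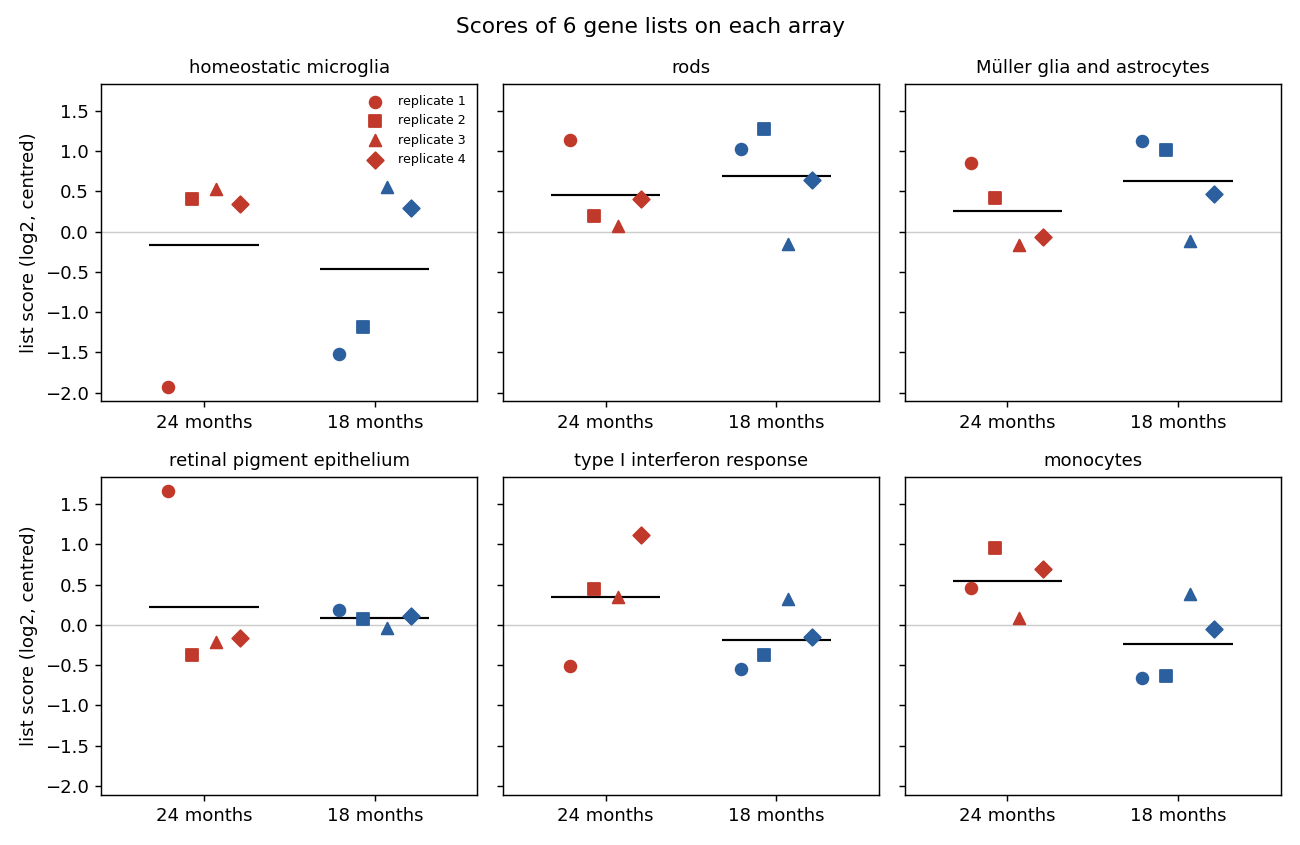
Scores of 6 gene lists on each array at 24 months (left in each panel, red) and 18 months (right, blue). The vertical axis is the mean of the list members in log2 units, each centred on its mean over all 16 arrays, the marker shape gives the replicate and the horizontal bar the mean of 4 arrays. Replicate 1 of 24 months (−1.93) and replicates 1 and 2 of 18 months (−1.52 and −1.18) lie low in homeostatic microglia genes and high in rod and Müller glia genes.

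Genes of the type I interferon response were higher at 24 months in 19 of 19 measured (27 listed), and their median difference of 0.57 was the largest among the 21 biology lists. Type I interferons induce antiviral genes, and the promoters of many of these hold a short element with paired GAAA letters. Of the 19 genes, 3 had an unadjusted p under 0.05, against 1.08% of all features, 1 had arrays that did not overlap, against 0.686% of all features, and 0 passed after adjustment. The score was −0.51, 0.45, 0.35 and 1.12 at 24 months and −0.55, −0.38, 0.32 and −0.15 at 18 months. Replicate 4 of 24 months was the highest of the 8 arrays, and the arrays lowest in microglia genes were the 3 lowest here too. Without those 3 arrays the median was 0.58, with 18 of 19 genes higher, and with the homeostatic score as a covariate it was 0.46. Without replicate 4 of 24 months the median was 0.21, and with the array number groups as a block it was 0.87.

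Ifitm3 (feature 6972168), which encodes a membrane protein that blocks virus entry, was the member whose arrays did not overlap. It had 11.75, 11.63, 11.57 and 11.75 at 24 months and 10.64, 10.60, 11.27 and 10.67 at 18 months, a difference of 0.88 (SE 0.273, limma adjusted p = 0.979). All 4 arrays of 24 months lay between 11.57 and 11.75, including the array that was low in microglia genes. At 3 and 12 months Ifitm3 averaged 11.04 and 10.91, so the 24-month mean of 11.67 was the highest of the 4 ages.

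Mx2, an antiviral GTPase, had 6.76, 7.59, 7.72 and 8.77 at 24 months and 6.43, 6.35, 6.56 and 6.86 at 18 months, a difference of 1.16 (SE 0.454). Oas2, a sensor of double-stranded RNA, had 6.38, 7.87, 7.57 and 8.94 at 24 months and 6.29, 6.43, 7.19 and 7.01 at 18 months. In both, replicate 4 of 24 months was highest and replicate 1 of 24 months lay among the 18-month arrays. The signalling genes Stat2, Irf7 and Irf9 differed by 0.57, 0.57 and 0.59. Ifit1, among the most strongly induced interferon genes, showed the smallest difference of the list, with 6.84, 7.32, 7.90 and 7.87 at 24 months and 7.67, 8.13, 8.28 and 5.82 at 18 months, so 2 of the 18-month arrays lay above all 24-month arrays and 1 lay below them.

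The promoters of Ifitm3 and Ifit1 are shown because these genes stand at opposite ends of the list in how far the ages were separated, while both carry the interferon element. Sequences run from 250 bases before to 50 bases after the gene start on the gene's own strand, from RefSeq on GRCm38.p6. Ifitm3 lies at chr7:141010695-141010994 on the minus strand and Ifit1 at chr19:34640639-34640938 on the plus strand. Capitals mark matches to GAAANNGAAA or, read on the other strand, TTTCNNTTTC.
Ifitm3: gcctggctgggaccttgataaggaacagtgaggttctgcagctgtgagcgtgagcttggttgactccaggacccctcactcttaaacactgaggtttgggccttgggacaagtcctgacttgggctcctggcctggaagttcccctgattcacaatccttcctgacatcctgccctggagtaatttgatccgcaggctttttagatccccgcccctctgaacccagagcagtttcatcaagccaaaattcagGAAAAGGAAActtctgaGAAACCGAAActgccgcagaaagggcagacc
Ifit1: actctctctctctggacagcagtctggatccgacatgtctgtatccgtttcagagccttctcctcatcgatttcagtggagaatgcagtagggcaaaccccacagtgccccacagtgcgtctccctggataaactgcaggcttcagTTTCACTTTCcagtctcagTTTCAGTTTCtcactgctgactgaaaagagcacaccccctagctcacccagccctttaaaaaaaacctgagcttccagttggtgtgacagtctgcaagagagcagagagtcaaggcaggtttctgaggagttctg
Each promoter holds 2 matches, starting at positions 253 and 270 of the window in Ifitm3 and at positions 147 and 166 in Ifit1. Of the 19 measured list genes, 13 had a promoter in the RefSeq table and 7 of these held the motif on either strand, namely Ifit1, Ifitm3, Stat2, Rsad2, Ifih1, Ddx58 and Bst2, where the 2 matches overlap. Among all 27025 genes with a promoter in the table, 3.99% held it. The members with the motif differed between the ages by 0.01 to 0.88, so holding these letters did not go with 1 size of difference. A match describes the letters and is not a measured binding site.

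**Figure D2:**
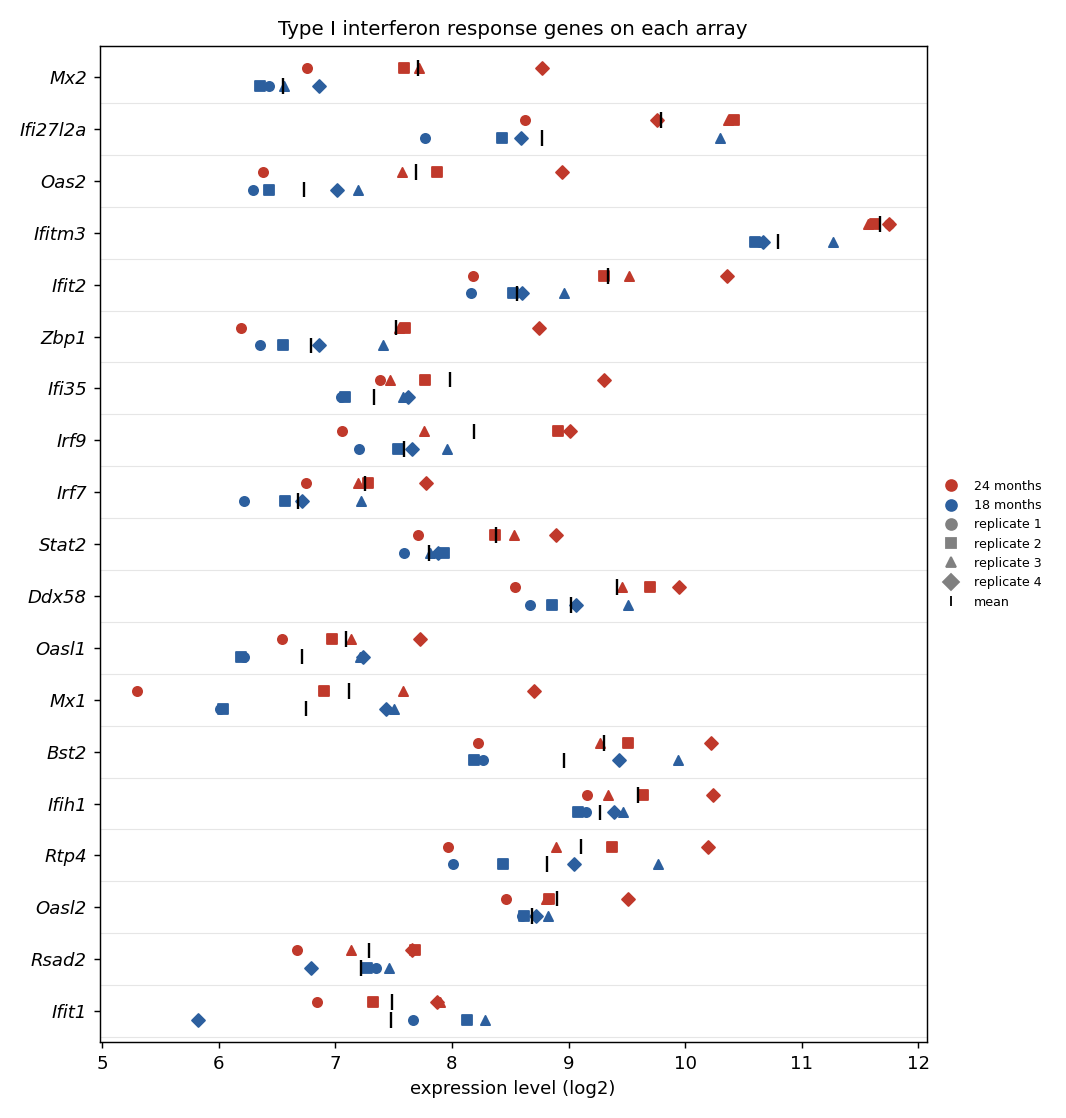
Levels of the 19 measured type I interferon response genes on each array, ordered by the difference between the ages, with 24 months (red) above 18 months (blue) in each row. The horizontal axis is the log2 expression level, the marker shape gives the replicate and the black tick the mean of 4 arrays. The ages are fully apart for Ifitm3, while in most other genes replicate 4 of 24 months is the highest point and replicate 1 of 24 months lies among or below the 18-month arrays.

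The largest difference of a single gene in the biology lists was that of a chemokine. Of 24 measured chemokine and receptor genes (25 listed), 20 were higher and 4 lower at 24 months, with a median of 0.33, and 2 had an unadjusted p under 0.05 against 1.08% of all features. Cxcl13 (feature 6932571), the B cell attracting chemokine, had 9.55, 10.61, 11.82 and 12.19 at 24 months and 6.74, 8.24, 9.98 and 9.67 at 18 months, a difference of 2.39 (SE 0.808, adjusted p = 0.979 in limma). The ages overlapped because replicate 1 of 24 months lay below replicates 3 and 4 of 18 months. Its mean at 3 and 12 months was 7.07 and 7.76. The difference was 1.71 without the 3 arrays low in microglia genes and 3.35 within array numbers 9 to 16.

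Ccr2, the receptor through which classical monocytes follow Ccl2, had 6.67, 9.77, 6.89 and 10.35 at 24 months and 6.14, 5.96, 7.82 and 7.06 at 18 months. It was high in 24-month replicates 2 and 4, while replicates 1 and 3 of that age lay within the 18-month range. Cxcl9, a chemokine induced by interferon gamma, had 5.99, 5.88, 6.31 and 10.59 at 24 months and 5.78, 5.78, 6.06 and 6.23 at 18 months, with replicate 4 of 24 months alone far above the other arrays. Ccl5, a chemokine of T cells and macrophages, had 5.94, 6.38, 7.75 and 9.32 at 24 months and 5.73, 5.69, 6.80 and 7.09 at 18 months. Without replicate 4 of 24 months the median of the list was 0.09, and without the 3 arrays low in microglia genes it was 0.20, whereas within array numbers 9 to 16 it was 0.81.

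Markers of blood monocytes were also higher at 24 months. Of 9 measured monocyte genes (11 listed), 9 were higher at 24 months, with a median of 0.47, and the score was 0.46, 0.95, 0.09 and 0.70 at 24 months and −0.66, −0.64, 0.39 and −0.05 at 18 months. The scores overlapped through replicate 3 of each age, which was the lowest at 24 months and the highest at 18 months. Plac8 (feature 6940358), a gene of monocytes and other myeloid cells, had 8.61, 9.30, 8.38 and 10.05 at 24 months and 5.52, 5.55, 8.31 and 7.22 at 18 months, a difference of 2.44 (SE 0.679) and the largest of all features. Its ages did not overlap, but replicate 3 of 24 months and replicate 3 of 18 months were close to each other. S100a4 had 8.91, 9.48, 7.94 and 9.86 at 24 months and 8.84, 8.37, 8.40 and 8.17 at 18 months. The median of the list was also 0.47 without the 3 arrays low in microglia genes, with 6 of 9 genes higher, and it was 0.77 without 18-month replicate 3 and 0.23 within array numbers 9 to 16.

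Markers of other CD11b-bearing or passing blood cells had smaller medians. Of 7 natural killer genes, 7 were higher at 24 months (median 0.25), and 2 of them, Gzma and Gzmb, had arrays that did not overlap, against 0.686% of all features. The natural killer score was 0.11, −0.01, −0.14 and 0.45 at 24 months and −0.51, −0.49, −0.20 and −0.20 at 18 months, without overlap. At 3 and 12 months it ran from −0.16 to 0.37, so all 18-month arrays lay below the younger ages. Of the 24-month arrays, only replicate 4 lay above them. Of these 7 genes, 5 were among the 33.3% dimmest features. Gzma, a granzyme of cytotoxic lymphocytes, had 7.92, 6.58, 6.45 and 6.07 at 24 months and 5.44, 5.45, 5.59 and 5.74 at 18 months, which puts it among the 33.3% dimmest features. Its means at 3 and 12 months were 6.59 and 6.32, against 6.75 at 24 and 5.55 at 18 months. The defining receptor gene Ncr1 lay between 5.06 and 5.45 at 24 months and between 5.00 and 5.25 at 18 months, near the lower end of the scale. Without replicate 4 of 24 months the median of the natural killer genes was 0.10, and without the 3 arrays low in microglia genes it was 0.21. T cell genes were higher in 9 of 9 (median 0.18) and B cell genes in 7 of 7 (median 0.08). Without the 3 arrays these medians were 0.03 and −0.02, and both scores were lowest on 18-month replicates 1 and 2. Of 11 neutrophil genes 10 were higher (median 0.11), and without the 3 arrays 3 were higher (median −0.11). S100a9, the brightest of them, had 10.40, 9.49, 5.22 and 10.26 at 24 months and 6.86, 5.24, 9.61 and 7.97 at 18 months. S100a9 varied as widely within each age as between them. Of 8 genes of perivascular macrophages, 6 were higher (median 0.14), and without the 3 arrays 2 were higher (median −0.35). Mrc1, the mannose receptor gene of those macrophages, had 8.59, 10.53, 11.10 and 10.04 at 24 months and 6.69, 8.94, 11.18 and 10.60 at 18 months. How much of the chemokine and interferon differences lay in monocytes or other blood cells was not tested.

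**Figure D3:**
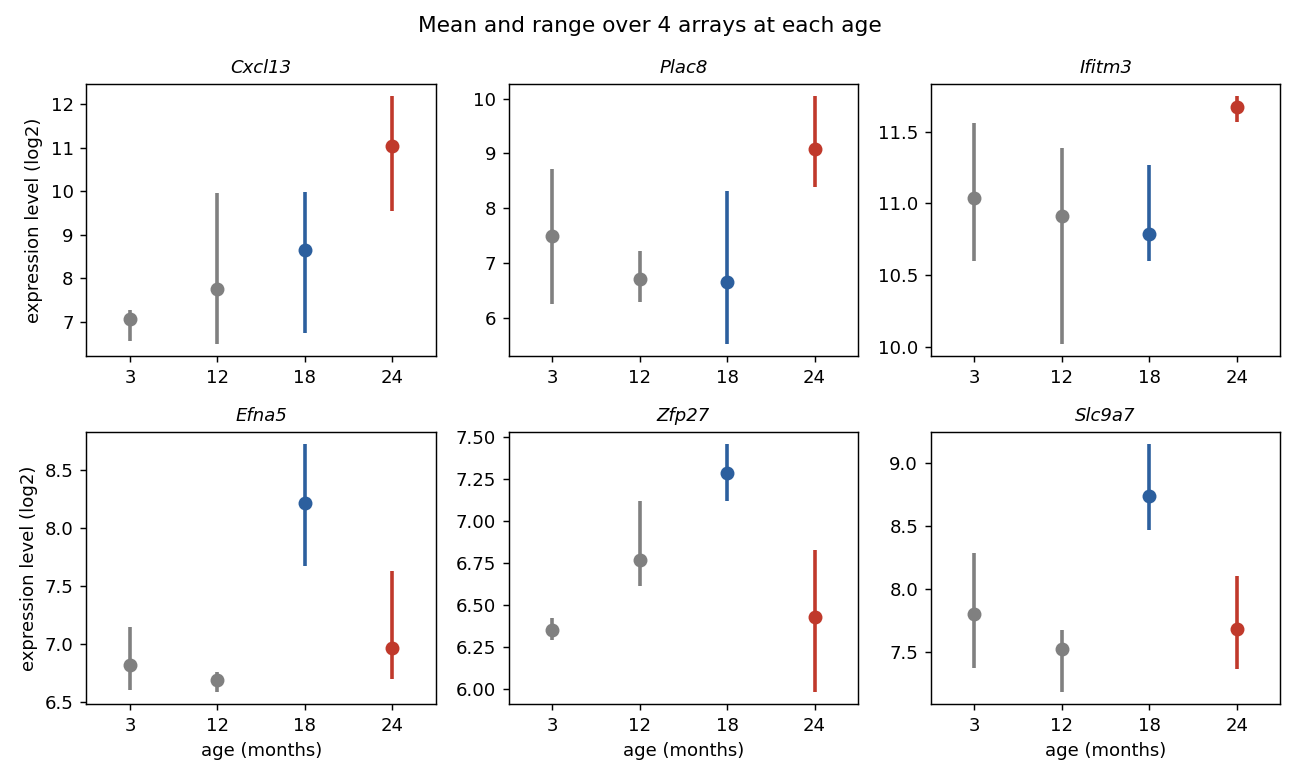
Levels of 6 genes at 3, 12, 18 and 24 months, with the point at the mean and the line from the lowest to the highest of 4 arrays, on a log2 axis whose range differs between panels. Cxcl13 averaged 11.04 at 24 months and 8.66 at 18 months, and the ranges of Plac8 and Ifitm3 at 24 months lie above those at 18 months. The 18-month ranges of Efna5 and Slc9a7 lie above those of the other ages, and that of Zfp27 meets the 12-month range at 7.12. The 24-month means of these genes lie near those of the younger ages. Efna5, Zfp27 and Slc9a7 were picked by the smallest p of this contrast.

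The named genes with the smallest p were lower at 24 months. Efna5 (feature 6856480), which encodes ephrin-A5, a membrane-bound ligand of Eph receptors, had 7.63, 6.73, 6.70 and 6.80 at 24 months and 8.06, 8.37, 7.67 and 8.72 at 18 months, a difference of −1.24 (SE 0.229). Its p of 9.03e-05 in limma was the smallest of the named genes and became an adjusted p of 0.979. Replicate 1 of 24 months lay far above its group and close to replicate 3 of 18 months. Without that 24-month array the difference was −1.46 with an adjusted p of 0.0357 in limma, 1 of the 3 features that passed in that fit. Zfp27, a zinc finger protein gene, had 6.83, 6.31, 5.98 and 6.59 at 24 months and 7.46, 7.40, 7.19 and 7.12 at 18 months. Slc9a7, a sodium and proton exchanger of the Golgi, had 8.10, 7.48, 7.75 and 7.36 at 24 months and 8.81, 9.15, 8.47 and 8.54 at 18 months. In these 3 genes every 24-month array lay below every 18-month array.

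Other lower genes of small p covered varied roles. Eef1a2, the translation elongation factor of neurons and muscle, differed by −0.64 (SE 0.154), Atp2b4, a calcium pump of the plasma membrane, by −0.78 (SE 0.210) and Edn1, the vasoconstrictor endothelin 1, by −0.58 (SE 0.145). Wipi1, which marks forming autophagosomes, had 8.07, 7.68, 7.32 and 7.77 at 24 months and 9.34, 9.30, 7.93 and 8.54 at 18 months, and its ages overlapped through 2 arrays. Kctd2, Ppm1l, a protein phosphatase, and Mttp, the microsomal triglyceride transfer protein, differed by −0.66, −0.64 and −0.34. Of the 10 lower genes, 9 had arrays that did not overlap, and in 10 the 18-month mean was the highest of the 4 ages. These genes were picked by this contrast, so that count describes them and tests nothing.

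Ch25h led the higher genes. It encodes cholesterol 25-hydroxylase, an enzyme that macrophages make under interferon, and had 7.09, 6.27, 7.04 and 5.82 at 24 months and 5.19, 5.35, 5.40 and 5.15 at 18 months, a difference of 1.28 (SE 0.312, limma adjusted p = 0.979). Its 18-month levels were near the lower end of the scale, and its 3- and 12-month means were 5.68 and 5.52. Ddx60, a helicase of antiviral defence, had 6.11, 6.68, 6.41 and 6.46 at 24 months and 5.74, 5.78, 5.98 and 6.07 at 18 months, also among the 33.3% dimmest features. Tmem106a, a membrane protein of macrophages, differed by 1.17 (SE 0.330), with 7.18, 7.94, 8.48 and 9.00 at 24 months and 6.40, 6.92, 7.61 and 6.97 at 18 months. Pqlc3, Rell1 and Fam110a differed by 1.22, 0.52 and 0.45, Nelfcd, a subunit of the negative elongation factor, by 0.50, Gamt, an enzyme of creatine synthesis, by 0.36, and Bdkrb1, a bradykinin receptor, by 0.50. Of the 10 higher genes, 6 had arrays that did not overlap, and in 9 the 18-month mean was the lowest of the 4 ages. These genes too were picked by this contrast, so both counts describe them and test nothing.

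**Figure D4:**
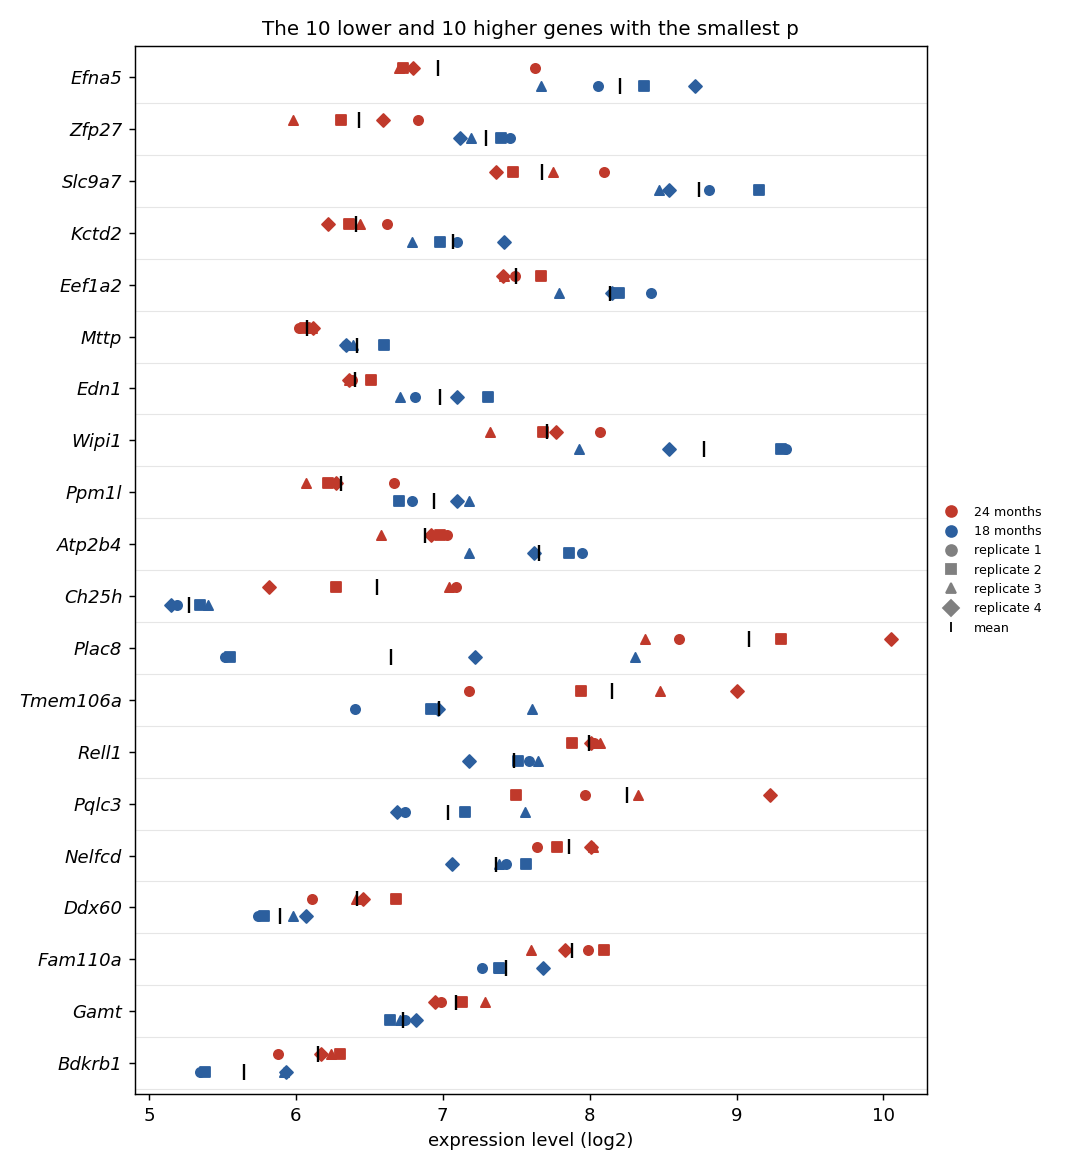
Levels of the 10 lower and the 10 higher genes with the smallest p on each array, with 24 months (red) above 18 months (blue) in each row. The horizontal axis is the log2 expression level, the marker shape gives the replicate and the black tick the mean of 4 arrays. Efna5 at 24 months has 3 arrays between 6.70 and 6.80 and 1 at 7.63, and Plac8 spans the widest range of the genes drawn.

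Among the largest differences of features whose arrays did not overlap, Edf1 and Defb9 each had 1 array far from the other 3 of its age. Edf1, a transcriptional coactivator, had 7.78, 6.94, 7.83 and 6.96 at 24 months and 8.13, 8.42, 10.91 and 8.19 at 18 months. Defb9, a beta-defensin, had 7.98, 5.44, 5.01 and 5.26 at 24 months and 4.84 to 4.95 at 18 months. In Vdac3, a channel of the outer mitochondrial membrane, 2 arrays of 18 months were high, with 7.71, 7.79, 7.78 and 7.19 at 24 months and 8.29, 7.80, 9.47 and 9.34 at 18 months. Lsm10, which processes histone messages, was separated more evenly, with 7.38, 9.06, 8.19 and 9.78 at 24 months and 6.93, 6.95, 6.65 and 6.67 at 18 months. Taar7b, an odour receptor of trace amines, differed by −1.26 and was among the 33.3% dimmest features.

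Antigen presentation and complement scores were lowest on the 3 arrays that were low in microglia genes. All 9 measured genes of MHC class I presentation were higher at 24 months (median 0.29), and the median was 0.17 without the 3 arrays. Psmb9, an immunoproteasome subunit, had 9.35, 10.38, 10.30 and 11.05 at 24 months and 8.51, 8.72, 10.49 and 9.81 at 18 months, and Tapbp, the loading chaperone tapasin, differed by 0.30 (SE 0.183). Of 7 MHC class II genes 6 were higher (median 0.44), and without the 3 arrays 3 were higher (median −0.12). H2-Aa had 7.60, 9.87, 9.35 and 10.03 at 24 months and 6.88, 7.93, 9.94 and 9.48 at 18 months, and H2-DMa, which helps load peptide on class II, differed by 0.55 (SE 0.589) and by −0.18 without the 3 arrays. Of 15 complement genes 11 were higher (median 0.29, and 0.03 without the 3 arrays). Cfb, complement factor B, was the 1 member of 15 with an unadjusted p under 0.05, against 1.08% of all features, with 7.44, 7.15, 6.87 and 8.57 at 24 months and 6.76, 6.67, 6.69 and 6.88 at 18 months. C1qb, a subunit of the initiator C1q, had 10.67, 11.89, 12.16 and 12.19 at 24 months and 10.40, 10.92, 12.06 and 11.72 at 18 months. Cd55, an inhibitor of complement activation, differed by 0.31 (SE 0.188).

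Sensing and cytokine genes gave a like picture. Toll-like receptor and inflammasome genes were higher at 24 months in 25 of 27 (median 0.37), and in 14 of 27 without the 3 arrays (median 0.07). Irak3, a brake on Toll-like receptor signalling, had 6.89, 7.66, 7.07 and 7.25 at 24 months and 6.56, 6.82, 6.79 and 6.63 at 18 months without overlap, and Irf3 differed by 0.37 (SE 0.211). Of 29 cytokine and NF-kB genes 21 were higher (median 0.19), 3 of them with an unadjusted p under 0.05 against 1.08% of all features, and without the 3 arrays 18 were higher (median 0.08). Nfkbia, the inhibitor that NF-kB itself induces, had 8.19, 7.78, 8.54 and 8.72 at 24 months and 7.36, 7.42, 7.90 and 8.02 at 18 months, and Nfkbie, a relative, differed by 0.45 (SE 0.186). Axl and Cd52, from the list of disease-associated microglia, differed by 0.50 (SE 0.297) and 1.00 (SE 0.590). That list had 11 of 16 genes higher, against 58.8% of all features (median 0.19, and 0.06 without the 3 arrays). Phagocytic receptors were higher in 19 of 23 (median 0.31, and 0.12 without the 3 arrays), led by the Fc receptor gene Fcgr4 with 1.07 (SE 0.594). Lysosome genes were higher in 20 of 24 (median 0.24, and 0.09 without the 3 arrays), with Npc2, a cholesterol carrier, at 0.63 (SE 0.446). Pros1, a bridging ligand for dying cells, differed by 0.36 (SE 0.388), Cd300lf by 0.47 (SE 0.281) and Tfeb, the lysosomal master regulator, by 0.24 (SE 0.168).

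Housekeeping, growth and stress programmes lay near the median of all features. Oxidative phosphorylation genes were lower at 24 months in 14 of 25 (median −0.05, and −0.03 without the 3 arrays), and Ndufb8 and Cox4i1, subunits of complexes I and IV, differed by −0.44 (SE 0.195) and −0.31 (SE 0.198). Autophagy genes were lower in 11 of 19 (median −0.02, and −0.05 without the 3 arrays), with Wipi2 at 0.47 (SE 0.240) opposite in sign to its relative Wipi1. Oxidative stress and iron genes had a median of 0.00 and, without the 3 arrays, of −0.09, with Gclc, an enzyme of glutathione synthesis, at −0.43 and the macrophage iron transporter gene Slc11a1 at 0.53. Cholesterol and lipid genes had a median of 0.03 (0.01 without the 3 arrays), with the desaturase gene Scd2 at −0.68 (SE 0.476) opposite Ch25h. Of 21 cell cycle genes 14 were higher, against 58.8% of all features (median 0.13, and 0.07 without the 3 arrays). Mcm7, part of the replicative helicase, had 6.08, 6.15, 6.07 and 6.51 at 24 months and 5.85, 5.55, 5.78 and 6.01 at 18 months without overlap. Birc5 differed by 0.25 (SE 0.123).

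Of 13 senescence genes 9 were higher at 24 months, against 58.8% of all features (median 0.03). Without the 3 arrays 3 were higher (median −0.05). Cdkn2a, the p16 locus, had 7.36, 7.37, 7.23 and 7.69 at 24 months and 6.76, 6.87, 7.48 and 7.41 at 18 months, and without the 3 arrays its difference was −0.01. Cdkn1b differed by −0.39 (SE 0.277). Immediate early genes, which dissociation of tissue can induce, had a median of 0.06 (0.01 without the 3 arrays), with Egr2 and Egr3 at 0.63 and 0.31. Of 8 ribosomal protein genes 7 were higher (median 0.08, and 0.03 without the 3 arrays), with Rpl4 at 9.95, 9.67, 9.93 and 9.95 at 24 months and 9.64, 8.85, 8.94 and 9.91 at 18 months and Rpl10a differing by 0.30 (SE 0.425).

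Growth factor genes included 1 lower member of note. Vegfa, the vascular endothelial growth factor, had 9.09, 9.09, 8.62 and 8.57 at 24 months and 9.98, 9.90, 8.97 and 9.16 at 18 months, a difference of −0.66 (SE 0.230) that was −0.31 without the 3 arrays. Its highest levels were in 18-month replicates 1 and 2, whose Müller glia scores were 1.13 and 1.02. Replicate 1 of 24 months, with a Müller glia score of 0.85, had the same Vegfa level as replicate 2 of that age, with 0.42. The part of Müller glia RNA in the Vegfa difference was not tested. Trophic and angiogenic genes as a list had 8 higher and 10 lower at 24 months (median −0.06, and −0.02 without the 3 arrays), with Pdgfc at −0.46 (SE 0.277). TGF-beta genes, whose signal maintains microglial identity, were higher in 15 of 24, against 58.8% of all features (median 0.09). Without the 3 arrays 12 of the 24 were higher (median −0.01). The receptor gene Acvrl1 differed by 0.41 (SE 0.197) and the ligand gene Tgfb3 by −0.30 (SE 0.161).

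**Figure D5:**
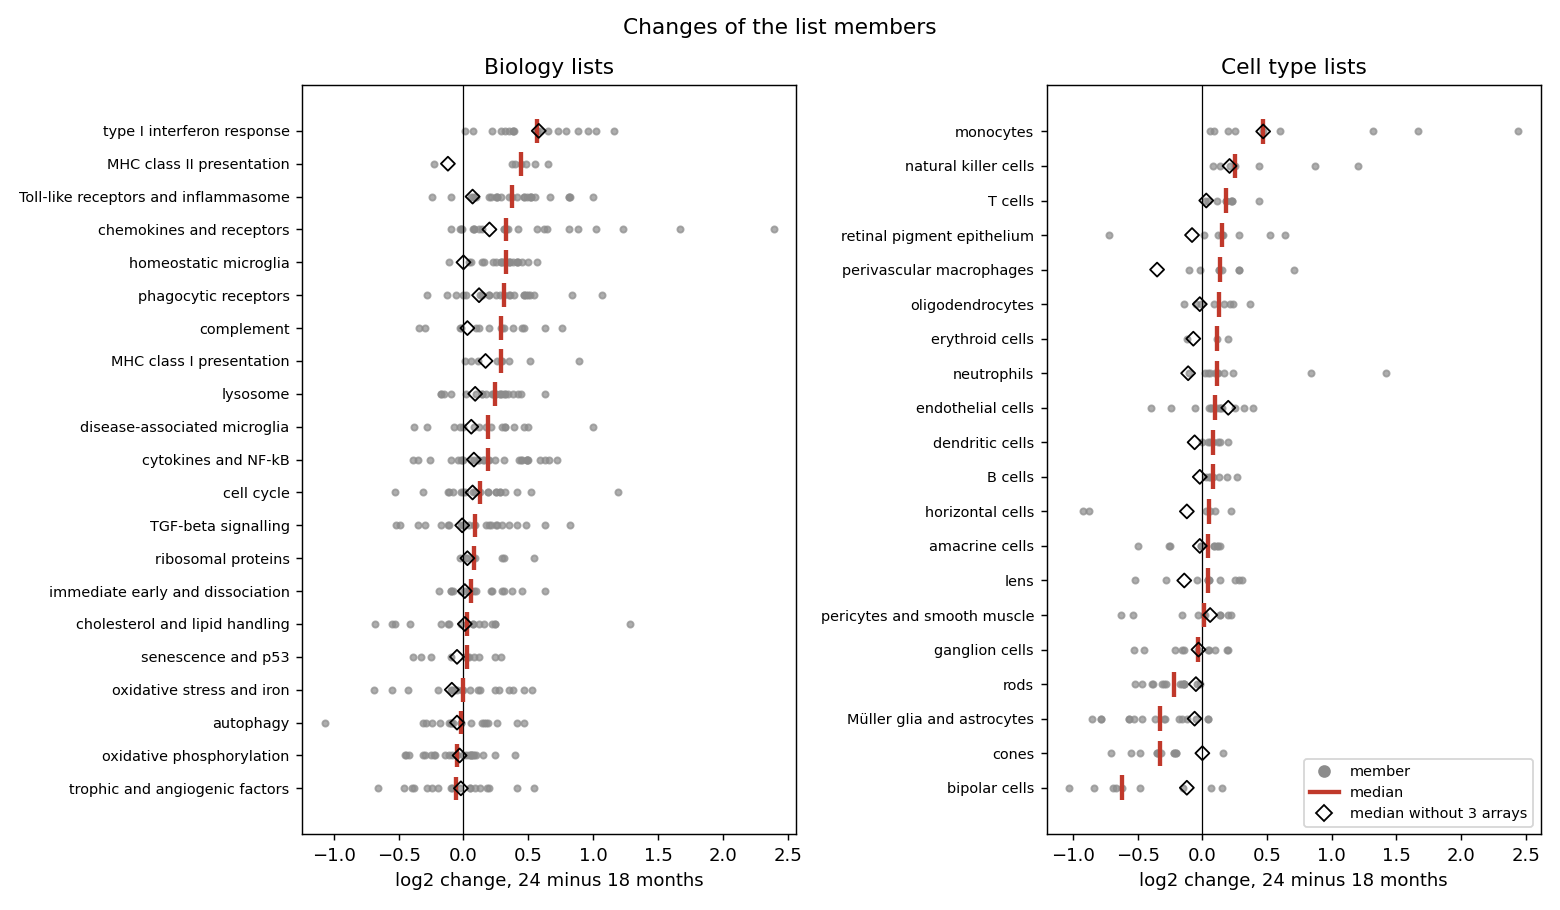
Differences between 24 and 18 months for the members of the 21 biology lists (left) and the 20 cell type lists (right), in log2 units with 24 minus 18 months on the horizontal axis. Grey points are members, red bars the median and open diamonds the median when 24-month replicate 1 and 18-month replicates 1 and 2 were left out. Interferon (0.57 and 0.58) and monocyte (0.47 and 0.47) medians lie at the same place with and without the 3 arrays. Homeostatic microglia (0.33 and −0.00) and MHC class II (0.44 and −0.12) medians do not. The diamonds rest on 24-month replicates 2, 3 and 4 and 18-month replicates 3 and 4 alone. In other alternative fits, not drawn, the interferon median fell as low as 0.21 and the monocyte median as low as 0.23.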

How the data were processed

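RNA from CD11b-sorted retinal cells was measured on exon arrays, 1 per sample. The deposited values are log2 levels from RMA, as the submitters' processing notes name it. Its version, its probe sets and whether features were filtered were not given in the sources used here. RMA equalises arrays at probe level, and array medians were 6.92 to 6.98 at 24 months and 6.88 to 6.99 at 18 months. Amplification of small RNA amounts can add spread, values near the lower end are compressed, and the number of arrays limits the precision.

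Groups came from the sample titles. Each of 16755 features was fitted in limma 3.58.1 (R 4.3.3, lmFit and eBayes) with 1 mean per age over all 16 arrays, and the contrast was 24 minus 18 months. Adjustment over all features followed Benjamini and Hochberg, calls were made at an adjusted p of 0.05, and nothing was filtered out. Of the features, 14996 had 1 gene symbol, 1019 several and 740 none; those with several or none were not named. Identifiers of 14941 matched a RefSeq gene table of GRCm38.p6 and 0 symbols differed. List genes with no feature of 1 symbol were not analysed. The fit was tested on simulated data with independent noise on each feature and array. That setting lacks the shared division of the arrays described above and so does not cover it.

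Members, lists and tests were chosen with earlier results of these data known. Named genes are the 10 with the smallest p in each direction, the 5 largest differences in each direction among features whose arrays did not overlap, 7 identity genes, the 2 members of each biology list with the smallest p, and the brightest member of each cell type list. Of the last, 12 are not discussed, a choice made with their values in view. Oas2, Ifit1, Stat2, Irf7, Irf9, Cxcl9, Ccl5, Gzmb, Ncr1 and 1700027A23Rik are not covered by this rule and were picked with their values in view. There were 22 alternative fits. The fit within array numbers 9 to 16 was added after seeing the data.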

Additional observations from a re-analysis of the deposited data

Results flagged for a closer look

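In 182 groups of 4 arrays, 91 named genes at each age, 1 array stood far from the other 3 in 18 groups by Dixon's criterion, which flags about 1 in 20 groups by chance. Replicate 1 of 24 months was low in all 7 identity genes of microglia. It had 8.69 for P2ry12, 9.91 for Cx3cr1, 7.2 for Tmem119, 9.39 for Csf1r, 7.19 for Itgam, 10.4 for Aif1 and 9.1 for Ptprc, and these 7 genes are not independent of each other. The same array was high in Efna5 at 7.63, Defb9 at 7.98, Prox1 at 9.22 and 1700027A23Rik at 7.55. Replicate 4 of 24 months was high in Cxcl9 at 10.59 and low in Vdac3 at 7.19, and replicate 2 of 24 months was low in Rpl4 at 9.67 and high in Rpl10a at 8.99. Replicate 1 of 18 months was high in Cd55 at 5.18, in a group whose whole range was narrow. Replicate 3 of 18 months was high in Edf1 at 10.91 and in Ifitm3 at 11.27, where it was the 18-month array nearest to the 24-month arrays. The part of RNA from other cells in these values was not tested.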

How the results depend on the processing

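With 4 arrays per age, differences below the spread between arrays could not be measured. The count of 0 passing features, with 432 at an unadjusted p under 0.05, was also 0 with the replicate block, which changed no call, and at a threshold of 0.1. Deviations of same-numbered arrays from their age means correlated at 0.73, −0.18, 0.45 and 0.30, so the numbers were not taken as pairs. It lay between 0 and 3 when each array was left out (for named genes, between 0 and 1), with 3 without 24-month replicate 1. It was 1 within array numbers 9 to 16, 1 without the 3 arrays low in microglia genes (the named gene 1700027A23Rik, −1.25, limma adjusted p = 0.0373), and 4776 with array weights, of which 73 were named genes. Those weights were 4.55 and 3.13 on 18-month replicates 1 and 2 and 0.309 and 0.326 on replicates 3 and 4, so that age rested mainly on its low arrays. Without a test, 253 features had arrays that did not overlap. The median stayed on 1 side of 0 in every alternative for 18 of 41 lists, among them interferon (0.21 to 0.89).

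Array weights moved the median to 1.53 for homeostatic microglia, 1.73 for MHC class II, 1.10 for Toll-like receptors, 0.86 for lysosome, 0.23 for immediate early, 0.28 for ribosomal protein, −1.38 for bipolar cell, −0.89 for Müller glia, 0.19 for horizontal cell, −0.55 for endothelial, −0.26 for pericyte, 0.32 for erythroid and 0.32 for oligodendrocyte genes. Array number groups as a block gave −1.05 for rods, −1.09 for cones, −0.90 for Müller glia and −0.26 for pericytes. Without the 33.3% dimmest features, medians were −0.13 for trophic, −0.11 for cholesterol, −0.13 for amacrine cell and 0.72 for neutrophil genes. Without the 3 arrays they were −0.12 for horizontal cell, −0.14 for lens and −0.07 for erythroid genes.

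Genes whose difference changed sign did not pass in the fit that changed it. Leaving out each array gave −0.10 to 1.02 for Cx3cr1, −0.03 to 1.11 for Csf1r, −0.29 to 0.84 for P2ry12, −0.01 to 0.10 for Glul, −0.54 to 0.28 for Ifit1, −0.08 to 0.43 for Rpl10a, which was at −0.06 within array numbers 9 to 16, and −0.17 to 1.32 for Mrc1. Without the 3 arrays, differences were −0.07 for P2ry12, −0.18 for H2-DMa, −0.01 for Cdkn2a, 0.08 for Gnat1, −0.33 for Mrc1 and −0.47 for S100a9. P2ry12 was at −0.25 with 18-month replicates 1 and 2 averaged, and the homeostatic score as a covariate gave −0.29 for P2ry12 and 0.02 for Gnat1. Glul was at −0.03 with quantile normalization, −0.07 with array weights, −0.10 with the number block and −0.01 with the number as a covariate. Ifit1 was at −0.28, −0.24 and −0.16 in the last 3 of these. The cause of these changes was not tested.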
